A study of Mus musculus with 28 samples.

Results

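The regions described here carried an H3K9me2 domain in 2-cell-like cells (2CLCs) with and without EHMT2 depletion and no domain in mouse embryonic stem cells (mESCs) of either treatment. They were found base by base on chromosomes 1 to 19. A base was kept when it lay in both 2CLC domain sets and in neither mESC domain set, segments under 1 kb apart were joined, and runs of at least 10 kb were retained. This gave 511 regions, called 2CLC-only regions below, with a total length of 13.2 Mb or 0.535% of these chromosomes. The domain sets of the sorted cells held 22791 domains on the same chromosomes. Because the rule uses the domain calls themselves, the presence of the regions in 2CLC domains and their absence from mESC domains are not findings.

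All cells came from a BL6/129 hybrid mESC line, made by targeting KH2 cells, in which the degron dTAG, with an mCherry reporter, is joined to endogenous EHMT2, so the controls carried the tagged allele as well. The line also holds a MERVL-GFP reporter, read from an endogenous retrovirus that is active in 2CLCs, and cells were sorted by GFP after 72 h in DMSO or in the degrader dTAG-13. The 4 conditions, mESC DMSO, mESC dTAG, 2CLC DMSO and 2CLC dTAG, each had 3 immunoprecipitation and 3 input libraries from 1 clone, assayed with ULI-NChIP, which precipitates native chromatin from low cell numbers. According to the labels, 2 of the replicates, which are not named, also received TTNBP, an agonist of retinoic acid receptors, and the methods of the study mention it without this limit. Each condition is represented by a single list of domain positions with no score, so no value below has a replicate, no test between conditions was possible, and the sorted identities could not be checked against transcripts of the same cells. The depth behind the lists is unknown. A further list names neither cell state nor treatment. It is called the unnamed set, belongs to no group and did not enter the rule. The series also holds 2 immunoprecipitation and 2 input libraries of bulk mESCs after 24 h in DMSO. The methods describe the domain call without naming libraries. The results of the study report a domain call from its ULI-NChIP data after the bulk assay and before that of sorted cells. Still, no source used here says whether the unnamed set came from the bulk cells. If it did, the bases it covers were in a domain of an mESC culture, and the name 2CLC-only refers to the sorted sets alone.

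H3K9me2 is a histone mark of repressed chromatin that is deposited by EHMT2 (also called G9a) together with its partner EHMT1, and it can extend over broad domains that follow gene-poor, lamina-associated chromatin. 2CLCs arise at low frequency in mESC cultures and transcribe genes and MERVL elements of the 2-cell embryo. A degron on EHMT2 allows the protein to be removed within hours, while the mark itself can be lost more slowly and can be maintained in part by other enzymes.

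Promoters inside these regions ranged from CpG-dense to CpG-poor. The windows of 5 genes that start in a 2CLC-only region are printed to show this range, as RefSeq gives them for GRCm38.p6, from 250 bases before to 50 bases after the annotated start, 5′ to 3′ on the strand of the gene, with CpG dinucleotides in capitals. Tbl1xr1 (chr3:22076402-22076701, plus strand), Rai14 (chr15:10714049-10714348, minus strand) and Thrb (chr14:17660710-17661009, plus strand) lie in regions of at least 85 kb and hold 25, 25 and 37 CpG. Cyp2b10 (chr7:25897408-25897707, plus strand) and Slc1a3 (chr15:8710758-8711057, minus strand) lie in narrower regions and hold 4 and 3 CpG. Width did not sort the counts beyond these windows. The window of the olfactory receptor gene Olfr1412, in a region of 65 kb, held 3 CpG, and that of Zfp946, in a region of 10 kb, held 12.
Tbl1xr1: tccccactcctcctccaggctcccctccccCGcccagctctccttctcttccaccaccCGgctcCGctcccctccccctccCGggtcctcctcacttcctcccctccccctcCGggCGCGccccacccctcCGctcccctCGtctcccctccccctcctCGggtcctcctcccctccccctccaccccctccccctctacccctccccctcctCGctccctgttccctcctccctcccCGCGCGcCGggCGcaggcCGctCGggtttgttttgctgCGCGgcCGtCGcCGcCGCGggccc
Rai14: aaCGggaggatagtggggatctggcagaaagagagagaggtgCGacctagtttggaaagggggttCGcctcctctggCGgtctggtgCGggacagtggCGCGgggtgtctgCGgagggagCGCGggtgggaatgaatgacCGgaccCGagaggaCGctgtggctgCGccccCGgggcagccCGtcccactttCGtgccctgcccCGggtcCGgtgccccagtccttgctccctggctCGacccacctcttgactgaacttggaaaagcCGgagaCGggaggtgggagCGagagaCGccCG
Thrb: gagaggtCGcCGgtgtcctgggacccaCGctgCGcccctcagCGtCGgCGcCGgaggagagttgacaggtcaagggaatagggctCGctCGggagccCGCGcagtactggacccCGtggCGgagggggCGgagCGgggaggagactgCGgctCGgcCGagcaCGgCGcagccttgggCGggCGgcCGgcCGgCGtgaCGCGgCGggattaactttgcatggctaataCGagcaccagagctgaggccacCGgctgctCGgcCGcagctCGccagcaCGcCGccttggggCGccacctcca
Cyp2b10: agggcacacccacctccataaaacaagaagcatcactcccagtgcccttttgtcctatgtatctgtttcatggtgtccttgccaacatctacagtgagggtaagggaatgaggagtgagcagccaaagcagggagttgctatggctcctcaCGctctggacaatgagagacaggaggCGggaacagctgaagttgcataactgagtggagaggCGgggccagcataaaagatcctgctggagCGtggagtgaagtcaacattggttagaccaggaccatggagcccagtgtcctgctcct
Slc1a3: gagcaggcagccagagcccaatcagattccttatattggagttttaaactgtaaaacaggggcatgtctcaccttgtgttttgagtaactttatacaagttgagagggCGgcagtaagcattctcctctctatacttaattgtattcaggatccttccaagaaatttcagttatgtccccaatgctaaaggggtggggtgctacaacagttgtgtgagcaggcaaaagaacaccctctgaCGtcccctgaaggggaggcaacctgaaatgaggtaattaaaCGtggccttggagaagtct

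The 2CLC-only regions were short compared with the domains they belong to. Their median width was 20 kb (exact order-statistic 95% interval 20 to 20 kb, n = 511 regions), with an interquartile range of 12.5 to 35 kb, and 65 regions were at least 50 kb wide. The widest measured 115 kb. The 2CLC DMSO domain around a region had a median width of 120 kb (105 to 135 kb) and the 2CLC dTAG domain 80 kb (70 to 85 kb). The regions fell in 470 different 2CLC DMSO domains, of which 37 held at least 2 of them and none more than 3. All intervals over regions in this text cover counting along the genome only and say nothing about variation between cultures.

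Many runs with the same pattern were narrower than the limit. Before the limit on width there were 933 runs and 15.3 Mb, and 86.1% of these bases were kept. Just outside the limit were 419 runs of a single 5 kb grid bin, with 2.10 Mb in all, and 3 runs that rounding of the grid left 1 bp short. Just inside were 128 runs of 10 kb. The unnamed set covered 74.4% of the bases of the single-bin runs and 67.6% of the bases of the 10 kb runs.

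The mirror pattern, in both mESC sets and in neither 2CLC set, was about as frequent. It gave 493 mESC-only regions with 12.4 Mb, 0.505% of chromosomes 1 to 19. The ratio of 2CLC-only to mESC-only regions was 1.04 in number (95% interval 0.916 to 1.17) and 1.06 in length. It fell below 1 in number without chromosome 2 (0.978), chromosome 3 (0.985) or chromosome 13 (0.987), so which class is larger was not settled. Both patterns were small beside the 880 Mb held by all 4 sorted sets and the 966 Mb held by no sorted set.

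Most 2CLC-only regions were attached to a domain that mESCs also had. With a gap of up to 1 kb to an mESC domain of either treatment counted as contact, 282 regions (55.2%, Wilson 95% interval 50.9% to 59.4%) touched one on 1 side and 67 (13.1%, 10.5% to 16.3%) on both sides. Of the 67, 31 met an mESC DMSO domain on both sides and 28 an mESC dTAG domain on both sides, with 4 in both counts. The other 12 met a DMSO domain on 1 side and a dTAG domain on the other, so that no gap of a single mESC set was bridged there. The remaining 162 regions (31.7%, 27.8% to 35.9%) had no contact. The regions without contact were the widest class, with a median of 30 kb (25 to 35 kb) and 5.47 Mb in all. Those with contact on 1 side had a median of 15 kb and those with contact on both sides 10 kb. These counts accept a domain of either mESC treatment. When a side had to meet a domain of both mESC treatments, 83.6% of the regions had no contact.

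Regions standing apart from the domains of the other cell state were a larger share of the 2CLC-only than of the mESC-only class. Against 2CLC domains, 70 mESC-only regions (14.2%, 11.4% to 17.6%) had no contact, 324 (65.7%) had contact on 1 side and 99 (20.1%) on both. For 118 of the 2CLC-only regions (23.1%, 19.6% to 26.9%), the whole 2CLC domain around them held no mESC domain base, in the DMSO set and in the dTAG set alike. The same was true of 22 mESC-only regions (4.46%, 2.97% to 6.66%) with the cell states exchanged. The domains around mESC-only regions had a median width of 230 kb (195 to 260 kb) in mESC DMSO and 80 kb (75 to 85 kb) in mESC dTAG. The dTAG sets held 8281 domains in 2CLCs and 6770 in mESCs, and the DMSO sets 3870 each. The intervals over regions of both shares did not overlap between the classes, but they treat regions as independent, and regions in 1 domain are not. The mESC-only regions fell in 406 mESC DMSO domains, of which 65 held at least 2 and none more than 7. The 2CLC-only regions fell in 470 2CLC DMSO domains. Whether domain width and number account for the difference was not tested. With fixed domain sets and no replicates, whether this difference would recur in other cultures was not tested.

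**Figure D1:**
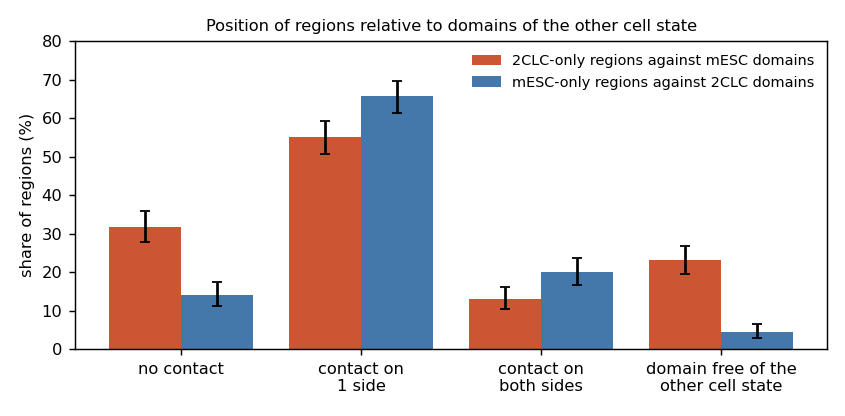
Share of regions (y axis, %) by contact with domains of the other cell state, for 511 2CLC-only regions (orange) and 493 mESC-only regions (blue). The last pair of bars gives regions whose DMSO and dTAG domains both hold no base of the other cell state. Error bars are Wilson 95% intervals over regions. No contact was seen in 31.7% and 14.2% of the regions, and free-standing domains in 23.1% and 4.46%.

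The 118 free-standing regions came from 112 2CLC DMSO domains and 116 2CLC dTAG domains. These domains were small, with a median of 50 kb in DMSO and 40 kb in dTAG around a region, and the widest in DMSO was 270 kb. A region filled a median of 76.4% of its DMSO domain and 86.6% of its dTAG domain. The small width and the high filled share follow in part from choosing domains that hold no mESC domain base. In 9 cases the DMSO and dTAG domains had the same start and end. The free-standing regions had a median width of 30 kb, covered 4.07 Mb and held 22 protein-coding gene starts.

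Distance to the mESC domains was short for most regions and long for a few. The median gap to the nearest mESC DMSO domain was 15 kb (10 to 20 kb) and that to the nearest mESC dTAG domain 5 kb (0 to 5 kb). The largest gaps were 1490 kb and 980 kb. A gap of at least 100 kb to both mESC sets was found for 49 2CLC-only regions (9.59%, 7.33% to 12.5%) and for 8 mESC-only regions measured against 2CLC sets. The 49 distant regions had a median width of 25 kb, reached 90 kb and held 6 protein-coding gene starts.

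The bins next to the regions were most often called in 2CLCs under a single treatment. Of 1022 edges, 285 (27.9%) met a bin called in 2CLC DMSO only and 209 (20.5%) a bin called in 2CLC dTAG only. Another 171 edges (16.7%) met a bin called in every set except mESC DMSO, and 135 (13.2%) a bin called in every set except mESC dTAG. All 4 sets held the next bin at 85 edges (8.32%) and no sorted set held it at 112 (11.0%). Thus at 494 edges the 2CLC pattern continued under 1 treatment beyond the region. A region ends where the call of at least 1 set changes, so next bins that differ in a single set follow in part from the rule.

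The unnamed set, which the rule did not use, covered most of the 2CLC-only bases. It held 73.5% of them, beside 63.3% of all bases of chromosomes 1 to 19. Of the 511 regions, 325 (63.6%, 59.3% to 67.7%) lay in it over at least 90% of their length, 302 of them completely. A further 61 regions were covered in part. The other 125 regions (24.5%, 20.9% to 28.4%) had no base in the unnamed set, and these were absent from every list except those of 2CLCs.

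Coverage by the unnamed set was lower in 2CLC-only than in mESC-only regions. Of the mESC-only regions, 440 of 493 (89.2%, 86.2% to 91.7%) were covered over at least 90% and 22 had no base in it, and 94.7% of their bases were covered. Regions called in 2CLC DMSO only were close to the 2CLC-only class, with 628 of 954 covered over at least 90%. Regions called in 2CLC dTAG only were covered less often, with 570 of 1744 at 90% or more and 887 at 0. All of these classes lie between bases held by all 4 sorted sets, 94.0% of which were in the unnamed set, and bases held by no sorted set, with 24.0%, except that the bases of the mESC-only regions slightly exceeded the former.

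**Figure D2:**
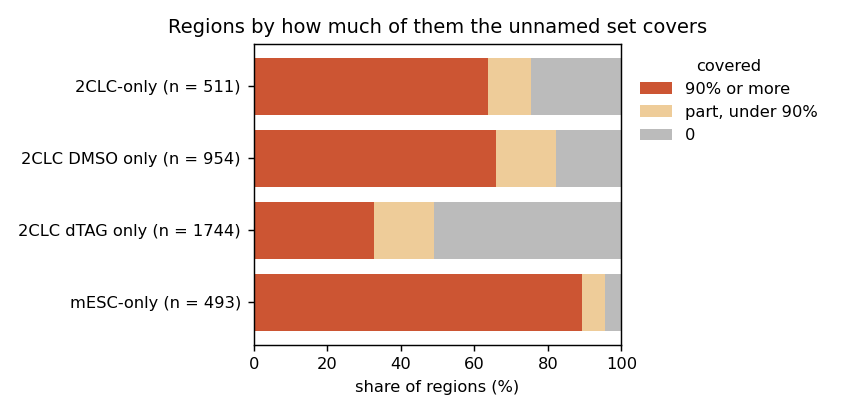
Share of regions (x axis, %) that the unnamed set covers over at least 90% of their length, in part, or not at all, for regions called in both 2CLC sets only, in a single 2CLC set only, and in both mESC sets only. At least 90% was covered for 325 of 511 2CLC-only and 440 of 493 mESC-only regions.

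Regions in the unnamed set were found in every class of contact. At least 90% was covered for 108 of 162 regions without contact, 172 of 282 with contact on 1 side and 45 of 67 with contact on both sides. Among the 118 free-standing regions, 75 (63.6%) were covered over at least 90% and 37 not at all. Of the 49 regions at least 100 kb from any mESC domain, 30 were covered over at least 90% and 18 not at all. Regions at 0 in the unnamed set had a median width of 15 kb (15 to 20 kb), a median GC content of 40.2% (39.4% to 40.9%) and a median soft-masked share, the part of the sequence marked as repeats, of 32.2% (28.9% to 34.1%). In regions covered over at least 90% these medians were 20 kb, 41.5% (41.1% to 41.8%) and 27.3% (25.7% to 29.4%). The density of protein-coding gene starts was 9.19 per Mb at 0, 5.69 per Mb at 90% or more, and 18.0 per Mb in the 61 partly covered regions.

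The widest regions were examined singly. The widest, chr15:34763691-34878690 (115 kb), contained the whole of Kcns2, a modulatory subunit of voltage-gated potassium channels, whose start lay 41.3 kb from the nearer edge. It touched an mESC DMSO domain on 1 side and lay 40 kb from the nearest mESC dTAG domain, and the 2CLC domains around it measured 125 kb in both treatments. The unnamed set covered 99.7% of it.

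At Tbl1xr1, which encodes a subunit of the NCoR and SMRT corepressor complexes, the region chr3:21974482-22079481 (105 kb) reached from upstream sequence 2.83 kb into the gene. It lay 80 kb from mESC DMSO and 115 kb from mESC dTAG domains. In 2CLC dTAG it was part of a domain of 1655 kb. In 2CLC DMSO it was a domain of its own with 105 kb, separated by only 1 uncalled 5 kb bin from a domain of 1455 kb. A neighbouring region of 75 kb, chr3:21894483-21969481, touched no annotated gene, met an mESC DMSO domain on 1 side and was separated from the Tbl1xr1 region by a bin called in 2CLC dTAG only. Both were covered completely by the unnamed set.

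The region at Rai14 was the only one of the 12 widest with no sorted set in the next bin on either side. Rai14, named as a retinoic acid induced gene, encodes an actin-associated protein. The region chr15:10713723-10818722 (105 kb) held its start 0.901 kb inside the edge and extended upstream of it. The domain in 2CLC DMSO and that in 2CLC dTAG both measured 105 kb. The nearest mESC DMSO domain lay 250 kb away and the nearest mESC dTAG domain 5 kb away. The unnamed set covered 99.7% of it. Repeated 50-mers, stretches of 50 bases found more than once on the same chromosome strand, made up 16.8% of the region.

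At Thrb, which encodes a thyroid hormone receptor, the region chr14:17656124-17741123 (85 kb) began 4.14 kb before the gene start and took in 21.4% of the gene. It extended an edge held by all 4 sets, and its 2CLC domains measured 970 kb in DMSO and 620 kb in dTAG. On its far side the next mESC domain began after 10 kb in DMSO and after 15 kb in dTAG, so the region filled most of a gap between mESC domains of each treatment. The unnamed set covered it completely.

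**Figure D3:**
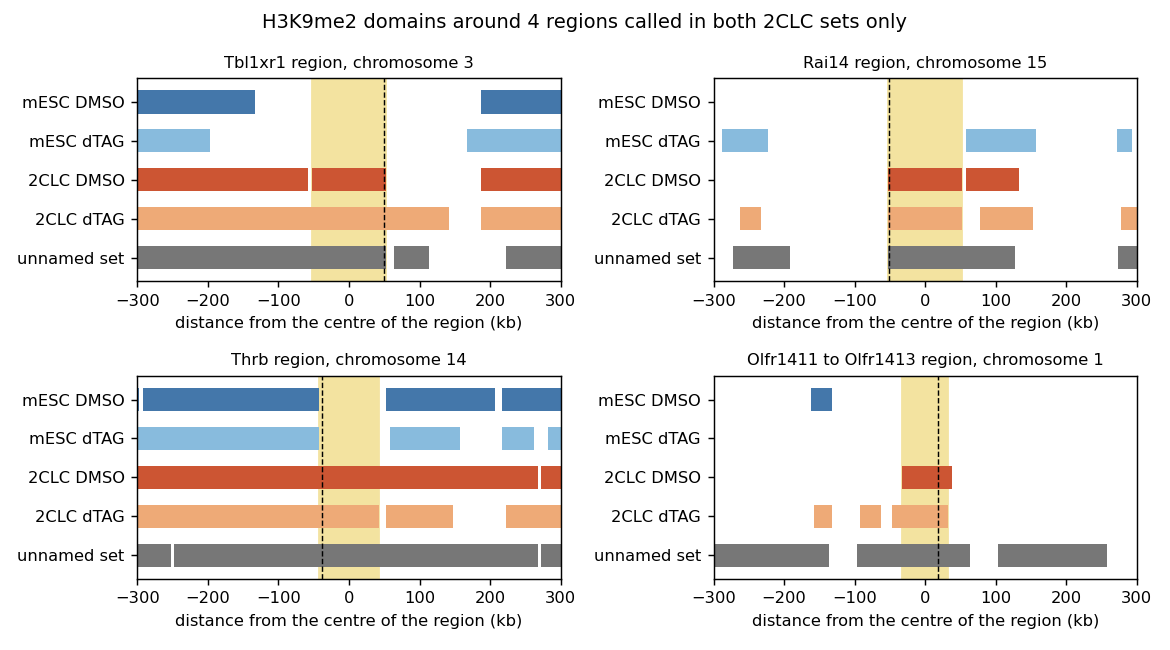
Domain positions (bars) in the 4 sorted sets and the unnamed set within 300 kb of the centre of 4 regions, with distance from the centre in kb on the x axis. The shaded band is the 2CLC-only region and the dashed line a gene start (Tbl1xr1, Rai14, Thrb and Olfr1412). The 2CLC domains of the Rai14 and olfactory receptor regions hold no mESC domain base, with the nearest mESC dTAG domain 5 kb and 360 kb away, and the Thrb region joins a domain of all 4 sets and ends 10 kb before the next mESC DMSO domain.

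Other wide regions lay inside long genes. The region chr5:14046275-14131274 (85 kb) was entirely within Sema3e, which encodes a secreted guidance factor for axons and vessels, 40 kb from mESC DMSO and 10 kb from mESC dTAG domains. The region chr2:3637973-3712972 (75 kb) was entirely within Fam107b, 90 kb and 55 kb away in the same order. Both stood in 2CLC domains of 85 to 95 kb that were free of mESC domain bases, and both were covered completely by the unnamed set. The region chr2:14907958-14992957 (85 kb) lay to 94.1% in Cacnb2, a beta subunit gene of voltage-gated calcium channels, and touched an mESC dTAG domain.

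The remaining wide regions held a single protein-coding start among them. It belonged to Dmtf1, a Myb-like transcription factor gene, with 59.3% of its body in chr5:9136282-9236281 (100 kb), a region that touched an mESC dTAG domain and also reached into Tmem243. The region chr6:89151289-89241288 (90 kb) contained no protein-coding gene, stood in 2CLC domains of 95 kb and lay 285 kb from mESC DMSO and 275 kb from mESC dTAG domains. Repeated 50-mers made up 31.2% of it, the highest value among the 12 widest. On chr19:3161853-3241852 (80 kb) the region bridged 2 edges held by all 4 sets, and 53.4% of it was soft-masked. The region chr10:14304982-14379981 (75 kb) extended an edge held by all 4 sets and held no protein-coding gene.

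Gene starts were found in 2CLC-only regions about as often as the length of the regions would give. On chromosomes 1 to 19, 105 of 20807 starts of protein-coding genes (0.505%) lay in them, beside 0.535% of the bases. Over annotated genes of every type it was 310 of 51229 starts (0.605%). The protein-coding starts fell in 90 regions (17.6%, 14.6% to 21.2%). Of the same starts, 44 (0.211%) lay in mESC-only regions, which held 0.505% of the bases. The density was 7.96 starts per Mb in 2CLC-only and 3.54 per Mb in mESC-only regions. Of the 105 starts, 58 (55.2%, 45.7% to 64.4%) were also in the unnamed set. For 29 protein-coding genes the whole body lay in a region, and the median length of the 105 genes was 27.4 kb.

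In position relative to genes, 179 regions lay completely within annotated gene bodies and 124 touched none. Introns made up 46.0% of the bases, exons 5.30% and intergenic sequence 48.7%. In mESC-only regions the exon share was 2.64% and the intergenic share 51.8%. By class of contact, 29 of the starts were in regions without contact, 60 in regions with contact on 1 side and 16 in regions with contact on both sides.

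Regions with several gene starts were few. Of the 12 regions with at least 2 starts, 3 held 3. The region chr1:92535086-92600085 (65 kb) held the olfactory receptor genes Olfr1413, Olfr1412 and Olfr1411 in 2CLC domains of 70 kb in DMSO and 80 kb in dTAG, 100 kb from mESC DMSO and 360 kb from mESC dTAG domains, and the unnamed set covered it completely. On chromosome 11, chr11:73304737-73349736 (45 kb) held the starts of Aspa, the aspartoacylase gene, of Spata22, a gene of meiotic recombination, and of the predicted gene Gm49340, whose start coincides with that of Spata22. It touched an mESC dTAG domain. The region chr11:99789702-99804701 (15 kb) held the predicted genes Gm11596, Gm11569 and Gm11554, and 48.5% of its 50-mers were repeated. The placement of reads there was not tested.

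None of 43 genes of the 2-cell program, on a list with the Zscan4, Obox, Tdpoz, Usp17l, Pramel, Pramef and Tcstv families, started in a 2CLC-only region. With 0.505% of all protein-coding starts in these regions, a list of this size would hold less than 1 start, so the count of 0 does not set the list apart. Domains of either DMSO set held the starts of 38 of them, and domains of either dTAG set held 39. A single member, Pramef12, started in an mESC-only region. These families lie in clusters, and their members are not independent.

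Several other lists also had 0 starts in the 2CLC-only regions, and most are likewise too short for the background of 0.505% to give 1 start. Among them were 22 pluripotency and early exit genes, 34 germline and meiosis genes, 17 retinoic acid response genes and 19 genes of the H3K9 methylation machinery. Most of these genes started outside domains in every set, with at most 4 members of a list in any sorted set. The germline and meiosis list does not hold every such gene. Spata22, described above, is not on it and started in a 2CLC-only region. Of the 57 clustered protocadherin genes, 39 Hox genes, 329 vomeronasal receptor genes, 60 serpin genes, 113 keratin genes, 67 histone genes, 92 cytosolic ribosomal protein genes and 43 collagen genes, none started in a 2CLC-only region. Lists were drawn by gene symbol or symbol prefix, so relatives under other symbols were not counted.

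Of 20 lists, 7 had at least 1 start in a 2CLC-only region, with 17 genes in all, against a background of 0.505% of protein-coding starts. The highest share was that of neurotransmitter receptor and ion channel genes, with 5 of 210 (2.38%) and none in an mESC-only region. The counts are small and no test was made of a list.

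The channel and receptor genes were Scn3b, Htr1b, Gabrb2, Kcns2 and Gabrr3, on 4 chromosomes. Scn3b, an auxiliary sodium channel subunit, started in chr9:40266571-40286570 (20 kb), inside 2CLC domains of 45 kb in both treatments and in contact with an mESC domain on 1 side, with 5.67% of the region in the unnamed set. The serotonin receptor gene Htr1b started in chr9:81631516-81641515 (10 kb), which met an mESC dTAG domain on 1 side and an mESC DMSO domain on the other. The region of Gabrr3, a subunit of GABA-gated chloride channels, chr16:59404834-59419833 (15 kb), touched an mESC domain on 1 side. Gabrb2, another GABA receptor subunit gene, started only 0.020 kb inside chr11:42394778-42419777 (25 kb), which is less than the 5 kb grid resolves. Thus of the 5 genes Kcns2 was the only one in a region of at least 50 kb.

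Other genes of lists were single cases. Sox17, a transcription factor of endoderm, was the only one of 147 developmental transcription factor genes (0.680%) to start in a 2CLC-only region, chr1:4495204-4515203 (20 kb). That region met an mESC DMSO domain, lay 25 kb from the nearest mESC dTAG domain, and was covered to 97.4% by the unnamed set. The glutamate transporter gene Slc1a3 was the only one of 358 solute carrier genes, in chr15:8688726-8713725 (25 kb), 180 kb from mESC DMSO domains and touching an mESC dTAG domain. Cyp2b10, a xenobiotic-inducible cytochrome P450 of liver, was the only one of 100 genes of its family, in chr7:25889628-25919627 (30 kb), which met an mESC DMSO domain and was covered to 30.01% by the unnamed set. Cdh10, a type II cadherin gene, was the only one of 97 neuronal adhesion and guidance genes (1.03%), and Zfp946 the only one of 385 zinc finger genes (0.260%). The Cdh10 and Zfp946 regions were 10 kb wide, touched mESC domains on both sides and had no base in the unnamed set.

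Of 1128 olfactory receptor genes, 7 (0.621%) started in 2CLC-only and 7 in mESC-only regions. Beside the cluster on chromosome 1, these were Olfr1257 in a region of 50 kb between an mESC DMSO domain on 1 side and an mESC dTAG domain on the other, within 2CLC domains of 5315 kb in DMSO and 4355 kb in dTAG, Olfr263 in a region of 20 kb with no base in the unnamed set, and Olfr1442 and Olfr1443 in a region of 40 kb without contact. Receptor genes of this family have close copies, and the read placement behind these calls was not tested.

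The promoters had a higher median CpG count than those of the mESC-only regions, with overlapping intervals. RefSeq windows were matched for 76 of the 105 genes. They held a median of 13 CpG in 300 bases (8 to 19), and 35 of them (46.1%, 35.3% to 57.2%) held at least 15. Among all 15704 matched genes the median was 15 and 50.4% held at least 15. Of the mESC-only genes 27 were matched, with a median of 4 CpG (1 to 12) and 6 windows (22.2%, 10.6% to 40.8%) with at least 15. The intervals of the classes overlapped for the median and for the share. The windows of Tbl1xr1, Rai14 and Thrb printed above belong to the CpG-dense class and those of Cyp2b10 and Slc1a3 to the CpG-poor class. The RefSeq start lay 526 bp from the GENCODE start at Rai14 and 699 bp from it at Thrb.

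In sequence composition the 2CLC-only regions lay between constant domains and domain-free sequence. Their median GC content was 41.1% (40.9% to 41.5%), below that of the mESC-only regions with 42.0% (41.8% to 42.2%). The median soft-masked share was 28.9% (27.3% to 30.3%) against 24.96% (24.4% to 25.9%), and repeated 50-mers had a median of 2.3% (1.94% to 2.68%) against 1.67% (1.46% to 1.87%). Repeated 50-mers made up at least 50% of 5 2CLC-only and 4 mESC-only regions. CpG density differed less, with a median of 7.40 per kb (7.03 to 7.70) against 7.73 per kb (7.47 to 8.04). Counted over bases of any run width, GC content was 41.3% in the 2CLC-only pattern, 38.7% in bases of all 4 sets and 45.3% in bases of no sorted set. Protein-coding starts numbered 9.08, 3.41 and 14.4 per Mb in the same order, and the soft-masked share was 31.3%, 43.9% and 25.7%. This position was not particular to the 2CLC-only pattern. Bases of both mESC sets only also lay between, with 42.0% GC, 4.61 starts per Mb and 27.5% soft-masked. So did bases of 2CLC DMSO only, with 41.3%, 6.80 and 27.3%, and of 2CLC dTAG only, with 43.7%, 13.9 and 32.3%.

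**Figure D4:**
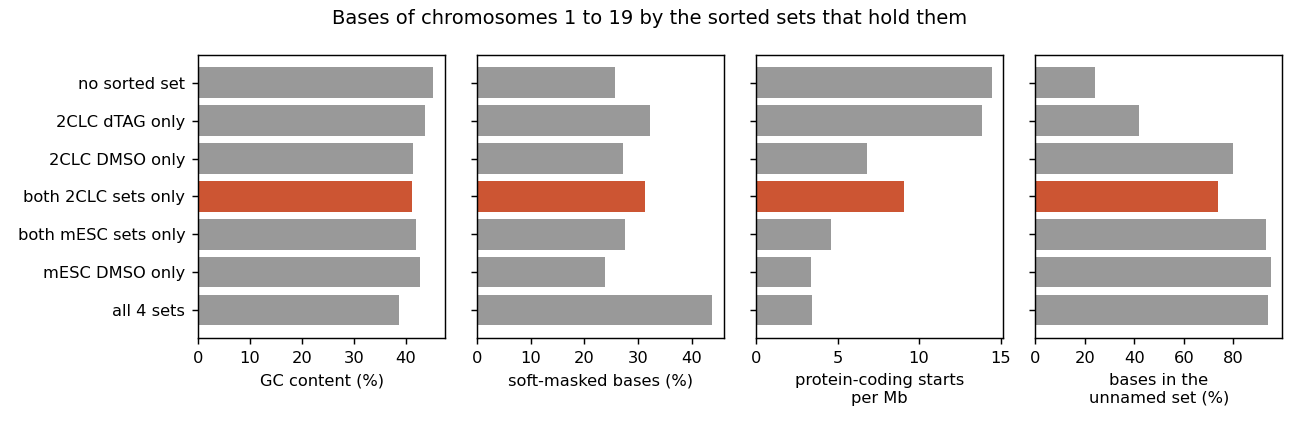
GC content, soft-masked share, density of protein-coding gene starts and share in the unnamed set (x axes) for bases of chromosomes 1 to 19, grouped by the sorted sets that hold them (y axis) with no limit on width. The pattern of both 2CLC sets (orange) has a GC content of 41.3% and 9.08 starts per Mb, between bases of all 4 sets (38.7%, 3.41) and of no sorted set (45.3%, 14.4).

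The regions were spread unevenly over the chromosomes. There were 56 2CLC-only and 28 mESC-only regions on chromosome 2, 51 and 26 on chromosome 3, and 46 and 22 on chromosome 13. The order was turned on chromosome 8, with 11 and 35, on chromosome 9, with 18 and 46, and on chromosome 5, with 19 and 42. Of 19 chromosomes, 10 had more 2CLC-only and 8 more mESC-only regions. The share of a chromosome in 2CLC-only regions was highest on chromosome 13 (0.901%) and chromosome 2 (0.876%) and lowest on chromosome 17 (0.200%) and chromosome 8 (0.213%). The near equality of both classes in number is thus a sum over chromosomes that differ in both directions.

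**Figure D5:**
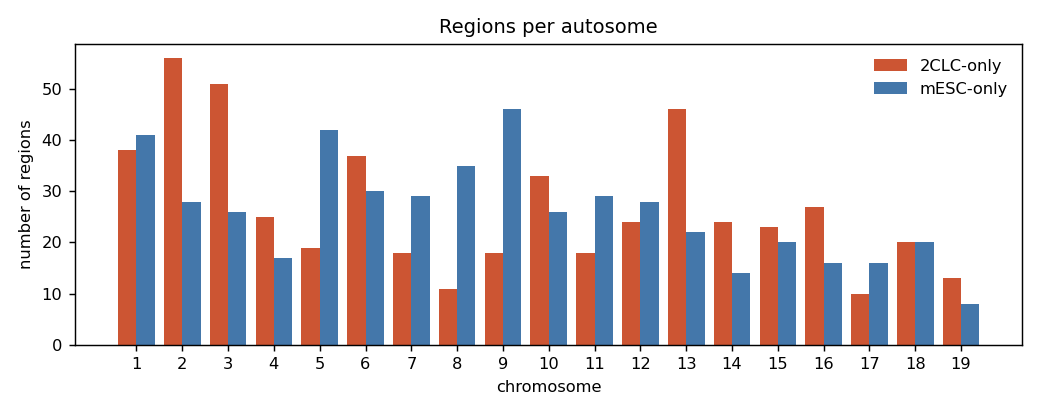
Number of 2CLC-only (orange) and mESC-only (blue) regions (y axis) on each of chromosomes 1 to 19 (x axis). Chromosomes 2, 3 and 13 hold more 2CLC-only regions (56, 51 and 46 against 28, 26 and 22), and chromosomes 5, 8 and 9 more mESC-only regions (42, 35 and 46 against 19, 11 and 18).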

How the data were processed

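H3K9me2 was measured by ULI-NChIP in 28 libraries of EHMT2-dTAG mESCs and 2CLCs. According to the methods, reads were aligned to mm10 with STAR in a repeat-aware mode, duplicates and reads in high-signal regions were removed, and coverage was scaled without chromosomes X and M. Domains were seeded in bins of high log2 ratio of immunoprecipitation to input and extended to a bin of low ratio. The submitters' processing notes name STAR 2.7.10, Picard 2.26.0, SAMtools 1.14, bedtools 2.30.0, deepTools 3.5.1 and R 4.1.2. Whether replicates were pooled, and whether percentiles were set per condition, was not stated. If they were set per condition, domain length does not follow the amount of the mark. The files deposited by the authors are 5 lists of start and end positions with a score of 0 throughout, and no other unit was used. The 4 sorted sets share a 5 kb grid, and the unnamed set has its own.

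Overlaps were computed base by base with Python 3.11.15, numpy 2.4.6 and pandas 2.3.3, and the code was tested on simulated intervals. Shares carry Wilson 95% intervals and medians exact order-statistic 95% intervals (scipy 1.17.1), both over regions. Gene starts, bodies and exons came from GENCODE M21 and sequence from GRCm38.p6. Repeated 50-mers were counted per chromosome and strand. Regions named are the 12 widest, the 5 widest without contact and the 3 with most protein-coding gene starts. Genes named start in these or belong to one of 20 lists, with the first 6 of a list in order of position, except that Olfr1443 was added after its position was seen, and genes that contain or overlap a named region were added in the same way. Members and lists were chosen with earlier results of these data known. Alternatives concerned the width limit, merging, domain width, widened domains of the other cell state, repeated sequence, chromosome X, the definition of contact, the genes counted, and leaving out each chromosome.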

Additional observations from a re-analysis of the deposited data

Results flagged for a closer look

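Chromosome X lay outside the rule and was left out of the scaling of coverage by the authors. The same rule applied there gave 85 2CLC-only regions with 2120 kb, the widest of 75 kb, and 13 mESC-only regions with 350 kb. This signal was picked out because the report does not otherwise use chromosome X. On chromosome Y neither pattern gave a region. Whether the excess on chromosome X would recur in other cultures was not tested.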

How the results depend on the processing

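Of 396 combinations of a result and an alternative, 362 stayed within 1.5 times the reported count or length, or within the reported 95% interval of a share or median and 34 moved further. The 396 include leaving out each chromosome in turn, which removes only a part of the regions and moved no result. They also include no merging, which changed nothing, with 933 segments before merging and 933 runs after. The 362 are therefore no measure of stability under the other alternatives, from which all 34 moves came. With a width limit of 20 kb there were 292 regions, a number ratio of 1.26 to mESC-only regions, contact on both sides in 8.22%, on 1 side in 47.6% and on none in 44.2%, free-standing domains in 33.9%, and medians of 31.9% soft-masked and 3.01% repeated 50-mers. At 50 kb there were 65 regions with 4.09 Mb and 23 gene starts, contact on 1 side in 40% and on none in 49.2%, free-standing domains in 36.9%, at least 90% coverage by the unnamed set in 76.9%, and medians of 41.6% GC, 31.6% soft-masked and 3.67% repeated 50-mers. Without domains under 50 kb, regions without contact made up 26.0% and the medians were 40.8%, 30.9% and 2.88%. Widening by 5 kb was applied to mESC domains for the 2CLC-only regions and to 2CLC domains for the mESC-only regions. The number ratio was then 1.18 and the medians of the 2CLC-only regions 30.8% soft-masked and 2.78% repeated 50-mers. Contact and free-standing domains were not run there, since widening sets the distance itself. With chromosome X added, the number ratio was 1.18, coverage of at least 90% by the unnamed set was seen in 57.6% (57.55%), and the median GC content was 40.9%. Contact within 6 kb was found on both sides in 18.0%, and contact with domains of both mESC treatments on both sides in 0.783%, on 1 side in 15.7% and on none in 83.6%. Counting all annotated genes gave 310 starts, and 326 protein-coding bodies overlapped a region.

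Leaving out 1 chromosome at a time gave 455 to 501 regions, 11.6 to 13.0 Mb, number ratios of 0.978 to 1.10 and length ratios of 0.979 to 1.16, with number ratios below 1 without chromosome 2, 3 or 13 and length ratios below 1 without chromosome 2 or 3. Without domains under 50 kb the number ratio was 0.972 and the length ratio 0.812, and at a limit of 50 kb the length ratio was 0.958. Which class is larger therefore depends on these choices. The other ranges were 12.3% to 14.3%, 54.3% to 56.1% and 30.8% to 32.7% for contact on both sides, on 1 side and on none, 22.2% to 24.1% for free-standing domains, 72.9% to 74.6% of bases and 62.6% to 64.3% of regions for the unnamed set, 92 to 104 gene starts, and medians of 41.1% to 41.2% GC, 28.6% to 29.2% soft-masked and 2.17% to 2.37% repeated 50-mers. No paired analysis was possible because each condition is a single list without replicate columns. Depth is unknown, and a bin just under a threshold in mESCs cannot be told from one without the mark.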
